A study of Mus musculus with 8 samples.

Results

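Of 84546 autosomal regions of accessible chromatin found in mouse macrophages, 16932 were called in 1 of 8 ATAC-seq libraries and in no other. These single-library regions are described here. ATAC-seq marks open chromatin by letting a transposase cut it and insert sequencing adapters. Peaks of all 8 lists on the 19 autosomes were merged into 1 region where they shared at least 1 base, and a region was a member when exactly 1 list held it. The members were thus chosen by the calls themselves, so their number of calls and their share of all regions (20.0%) are descriptions.

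The 4 groups had 2 libraries each: Nfat5 KO with LPS, WT with LPS, untreated Nfat5 KO and untreated WT. All came from bone marrow cells cultured for 7 days in 25% conditioned medium of L929 cells, which release M-CSF, the factor that drives marrow cells to become macrophages. E. coli LPS, a bacterial cell wall lipid that macrophages sense through Toll-like receptors, was given at 0.3 ng/ml for 2 h. NFAT5 is a transcription factor known for the response of cells to high salt that also acts in macrophages. The sources used here do not give the deleted part of the gene, the cells in which it was deleted or the age of the mice. The study states 2 biological replicates per group but not how they were separated, so the p-values measure the spread between these libraries. An LPS and an untreated library of the same genotype and number share a code in their titles. If that code marks an animal, which the labels do not say, a comparison of 4 KO with 4 WT libraries counts each animal 2 times. An exact permutation of 2 animals against 2 allows no p below 0.333. The sign flips over 8 libraries used below would then cover 4 animals, which allow no exact permutation p below 0.125.

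A region of open chromatin usually holds a promoter, where transcription of a gene starts, or an enhancer, which can act from afar. A peak is called when the cuts at a place rise over the local background by more than the threshold of the caller. Weak sites lie near that threshold, where a site may be called in one library and missed in the next. The lists give the position of each peak and no height, so a missing call does not show closed chromatin. In such bulk samples, a site open in fewer cells and a site less open in each cell cannot be told apart. All 6 macrophage markers examined (Csf1r, Adgre1, Cd68, Spi1, Mertk and Itgam) had a region called in all 8 lists within 1 kb of a gene end, as did 2 of 13 T cell, 2 of 10 B cell, 2 of 10 neutrophil, 3 of 6 erythroid and 1 of 11 fibroblast or stroma markers. Dendritic cell and mast cell or basophil markers were not part of this count. Of regions whose nearest gene within 100 kb was a dendritic cell marker, 17 of 45 (37.8%) were called in all 8 lists. For 25 macrophage identity genes, which include the 6 markers, it was 141 of 343 (41.1%), against 41.4% of all regions.

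A small share of the members lay on promoters. Of 20085 autosomal promoter windows of protein-coding genes in the RefSeq table (GRCm38.p6, 250 bases before to 50 after a transcription start), 244 overlapped a single-library region and no region of more lists. The members on these windows made up 0.714% to 2.12% of those of a library. This share was not set against that of the windows in the autosomal sequence. Another 1123 overlapped a region of 2 to 7 lists, and 9348 a region of all 8. The median GC content was 58.7% in the windows of single-library regions, 60.3% in those of 2 to 7 lists, 62.0% in those of all 8 and 50.3% in the 9370 windows without any region. The ratio of observed to expected CpG, the dinucleotide that is dense at the promoters of widely used genes, had medians of 0.531, 0.664, 0.805 and 0.247 in the same order. On both measures the pooled windows of single-library regions lay between windows without a call and windows called in every list. By library their medians ran between 48.5% and 65.0% GC and between 0.216 and 0.729 for the CpG ratio, and the 12 windows of KO LPS library 2 were lowest, below windows without a call.

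The widest members on a promoter window are shown for each group, with 1 CpG-rich example for contrast that was chosen after its values were seen. Sequences are from RefSeq (GRCm38.p6), 5′ to 3′ on the strand of the gene, with each CG dinucleotide in capitals. The windows are chr12:85686470-85686769 (plus strand) for Batf, chr10:94311699-94311998 (plus) for Tmcc3, chr2:127338389-127338688 (plus) for Astl, chr3:96161720-96162019 (plus) for Mtmr11 and chr7:139582748-139583047 (minus) for Nkx6-2.
Batf: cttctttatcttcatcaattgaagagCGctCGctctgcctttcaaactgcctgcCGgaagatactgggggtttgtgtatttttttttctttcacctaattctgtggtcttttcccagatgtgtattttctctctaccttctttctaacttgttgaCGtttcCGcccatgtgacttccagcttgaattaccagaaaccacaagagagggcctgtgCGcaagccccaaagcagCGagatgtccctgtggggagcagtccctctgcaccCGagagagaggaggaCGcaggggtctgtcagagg
Tmcc3: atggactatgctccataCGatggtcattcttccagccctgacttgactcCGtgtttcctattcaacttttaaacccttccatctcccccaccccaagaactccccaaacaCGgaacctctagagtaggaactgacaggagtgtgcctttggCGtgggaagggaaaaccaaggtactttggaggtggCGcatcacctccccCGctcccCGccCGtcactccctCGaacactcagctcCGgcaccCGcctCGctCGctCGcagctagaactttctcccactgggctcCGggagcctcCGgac
Astl: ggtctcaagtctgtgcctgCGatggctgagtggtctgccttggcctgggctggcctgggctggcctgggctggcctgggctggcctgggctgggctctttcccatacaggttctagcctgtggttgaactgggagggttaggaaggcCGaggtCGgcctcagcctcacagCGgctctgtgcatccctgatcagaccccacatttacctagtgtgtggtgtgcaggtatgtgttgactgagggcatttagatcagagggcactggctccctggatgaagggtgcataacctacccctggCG
Mtmr11: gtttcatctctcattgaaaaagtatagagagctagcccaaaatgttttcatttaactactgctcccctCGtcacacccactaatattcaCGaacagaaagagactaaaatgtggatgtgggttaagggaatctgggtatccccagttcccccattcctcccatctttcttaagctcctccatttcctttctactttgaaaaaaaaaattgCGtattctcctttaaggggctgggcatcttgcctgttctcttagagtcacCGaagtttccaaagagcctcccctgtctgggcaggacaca
Nkx6-2: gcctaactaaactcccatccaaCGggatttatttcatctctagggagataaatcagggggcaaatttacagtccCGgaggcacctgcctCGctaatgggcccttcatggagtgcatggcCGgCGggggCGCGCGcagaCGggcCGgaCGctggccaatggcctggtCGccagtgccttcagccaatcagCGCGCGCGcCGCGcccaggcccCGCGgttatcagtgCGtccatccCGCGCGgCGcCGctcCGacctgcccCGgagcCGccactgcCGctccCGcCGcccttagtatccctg

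Batf encodes an AP-1 family factor of immune cells. Its window was covered over all 300 bases by a region of 363 bases called in KO LPS library 1, and it held 9 CpG with an observed to expected ratio of 0.487. The Tmcc3 window shared 205 bases with a region of 567 bases of WT LPS library 1 and held 16 CpG (ratio 0.682). The Astl window shared 49 bases with a region of 444 bases of KO untreated library 2, and its 5 CpG (ratio 0.183) made it CpG-poor in spite of a GC content of 61.0%. Mtmr11, related to the myotubularin phosphatases, shared 269 bases with a region of 734 bases of WT untreated library 2 and held 4 CpG (ratio 0.287). Nkx6-2, a homeobox factor of the nervous system, shared 193 bases with a region of 521 bases of WT untreated library 1 and held 32 CpG (ratio 0.972). The window of Tlr1, which encodes a receptor for bacterial lipoproteins (chr5:64932650-64932949), shared 181 bases with a region of 528 bases of WT LPS library 1.

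Short motifs were searched on both strands of every promoter window. The GC box GGGCGG stood in 49.2% of the windows of single-library regions, 67.8% of those of all 8 lists and 47.0% of all windows. The ETS motif CCGGAAG stood in 6.56% of the windows of single-library regions, 21.4% of those of all 8 and 11.9% of all windows. The NRF1 motif was found in 3.69%, 12.2% and 6.55%, and the CCAAT box CCAAT in 29.9%, 40.2% and 38.1%, of the same sets. The reverse held for the TATA box TATAAA, with 14.3%, 6.08% and 12.7%, for the AP-1 motif TGANTCA, with 9.02%, 4.48% and 7.06%, and for the PU.1 motif GAGGAAGT, with 5.33%, 3.34% and 3.18%. The NF-kB motif was rare in each set, at 1.23%, 1.48% and 1.43%. In windows without a call the shares were 24.7% for the GC box, 2.78% for ETS, 1.08% for NRF1 and 37.3% for CCAAT. They were 19.7% for TATA, 9.73% for AP-1, 2.90% for PU.1 and 1.32% for NF-kB. The CCAAT share of single-library windows thus lay below the range between no call and 8 calls, and the PU.1 share above it. The same held for windows of 2 to 7 lists, at 28.9% and 3.74%. For NF-kB that range was narrow, and the single-library share lay just below it and the share of 2 to 7 lists, 1.96%, above it. With 244 single-library windows, the shares of the rare motifs rest on few windows. These shares are matches of letters and say nothing of binding. The ETS and PU.1 motifs share the letters GGAAG, and a GC box can lie within a longer CpG-rich stretch.

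The number of members varied between libraries of the same group. KO LPS libraries 1 and 2 had 1813 and 1540, WT LPS libraries 2478 and 1751, KO untreated libraries 1488 and 2808, and WT untreated libraries 2790 and 2264. They made up 2.77% to 4.92% of the regions a library called. The KO untreated pair spanned the whole range, and the groups overlapped in every comparison. The mean was 1896 ± 406 with LPS and 2338 ± 620 untreated (SD, n = 4; two-sided exact permutation p = 0.286, adjusted p = 0.492 over 14 tests). It was 1912 ± 614 in KO and 2321 ± 437 in WT (n = 4; exact permutation p = 0.371, adjusted p = 0.492). The members as a share of the called regions averaged 3.59% ± 0.668 with LPS and 4.14% ± 1.01 untreated (n = 4, exact permutation p = 0.4, adjusted p = 0.492), and 3.55% ± 0.966 in KO and 4.18% ± 0.676 in WT (n = 4, exact permutation p = 0.343, adjusted p = 0.492). Depth is unknown for all libraries. The lists held 52452 to 58321 autosomal peaks, and the 2 libraries with the most called regions, WT untreated library 1 (57339) and KO untreated library 2 (57034), also had the most members. When all lists were cut to their 52452 widest peaks, the LPS mean was no longer below the untreated one (1977 and 1903), and the KO mean was 1893 against 1987 in WT.

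**Figure D1:**
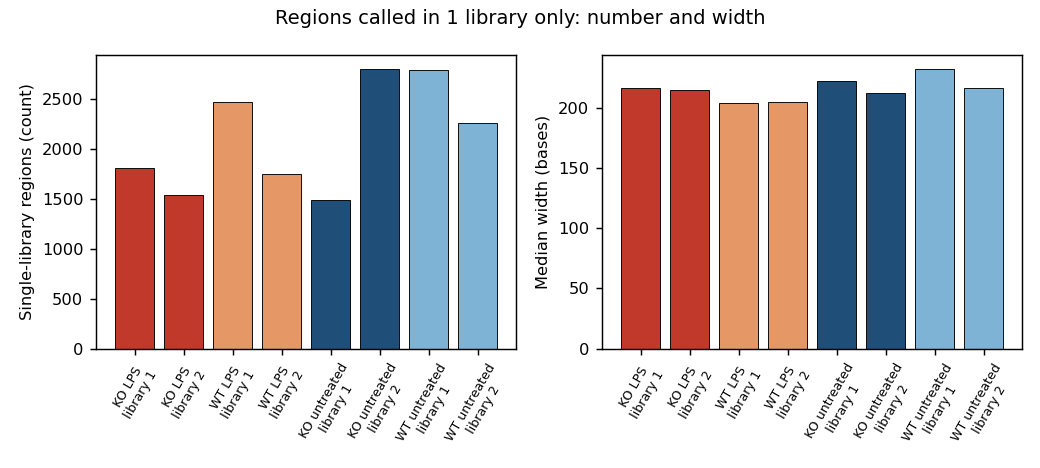
Number of single-library regions (left, count) and their median width (right, bases) in each of the 8 libraries, 1 bar per library, coloured by group. Counts run from 1488 to 2808 and libraries of a group differ, whereas the median width lies between 204 and 232.5 bases in every library.

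Single-library regions were narrow. Their median width was 216 bases with quartiles of 184 and 273, against 293 bases for regions of exactly 2 lists, the nearest ones outside the rule, and 740 bases for regions of all 8. A merged region grows with the number of peaks in it, so the fairer standard is the single peak: the median of all autosomal peaks was 403 to 443 bases in the 8 lists. Each list has its own smallest peak, between 156 and 174 bases. Peaks within 10 bases of that minimum made up 12.5% to 17.1% of the members and 3.0% to 3.65% of all peaks of a library. At 500 bases or wider stood 29 to 63 members per library (1.5% to 2.73%). In the LPS libraries the median was 216 and 215 bases in KO and 204 and 205 in WT, and in the untreated libraries 222.5 and 212.5 in KO and 232.5 and 216 in WT. Medians averaged 210 ± 6.38 bases with LPS and 220.9 ± 8.79 untreated (n = 4, exact permutation p = 0.143, adjusted p = 0.4), and 216.5 ± 4.26 in KO and 214.4 ± 13.3 in WT (n = 4, exact permutation p = 0.857, adjusted p = 0.857). The WT LPS lists also had the smallest minimum, 156 bases. LPS minus untreated in width was -10.88 bases as deposited, -35 among the 52452 widest peaks (218.9 and 253.9 bases, n = 4, exact permutation p = 0.0286, adjusted p = 0.1), -46.5 among the 26226 widest and -0.75 for regions of at least 200 bases.

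Members lay farther from genes than the regions that a library shared with others. Of the 16932 members, 49.2% overlapped a protein-coding gene, 6.78% lay within 1 kb of either end of one, and 16.7% lay over 100 kb from any. Regions of exactly 2 lists had 52.9%, 7.31% and 11.9%, and regions of all 8 had 65.4%, 27.4% and 6.37%. Regions of 3 to 7 lists lay between these, at 54.2% to 56.8%, 7.85% to 10.96% and 8.99% to 10.4%. Within each library, members were compared with the regions that 1 to 6 other lists also held. A shared region entered the set of each library that called it, so the 8 differences are not independent. The limit from shared title codes given above also applies to them. The share over a gene averaged 48.8% ± 4.60 for members and 55.0% ± 0.848 for the shared regions, lower in 8 of 8 libraries (difference -6.16 points, two-sided exact permutation test by sign flips over n = 8 libraries, p = 0.00781, which is the lowest 8 libraries allow, and adjusted p = 0.00781 over 4 comparisons). The share near a gene end averaged 6.60% ± 1.63 against 9.02% ± 0.831, again lower in 8 of 8 (difference -2.42 points, same exact permutation p and adjusted p). The share over 100 kb from genes averaged 17.3% ± 6.37 against 9.97% ± 1.21, higher in 8 of 8 (difference 7.32 points, same exact permutation p and adjusted p). Among the widest 26226 peaks of each list, these last differences were -6.97 and 2.94 points. With all genes of the gene table in place of the protein-coding ones, the difference far from genes was 2.62 points. At the gene ends it was -1.56 points when a member was a peak covered for less than 50% by other lists.

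**Figure D2:**
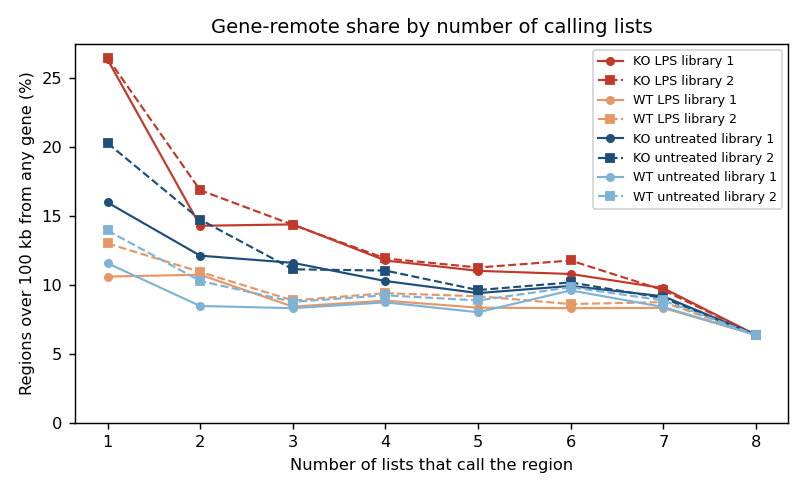
Share of regions over 100 kb from any protein-coding gene (y axis, %) by the number of lists that call the region (x axis, 1 to 8), 1 line per library coloured by group. The lines start between 10.6% and 26.5% at 1 list, highest in the KO LPS libraries, and meet at 6.37% at 8 lists, where all libraries hold the same regions.

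The place of the members differed most in the KO LPS libraries. There 26.4% and 26.5% of the members lay over 100 kb from any protein-coding gene, against 10.6% and 13.0% in the WT LPS libraries. In untreated cells the shares were 15.99% and 20.3% in KO and 11.6% and 13.96% in WT. All 4 KO libraries were thus above all 4 WT libraries, within each treatment as well as over both. The KO mean was 22.3% ± 5.10 and the WT mean 12.3% ± 1.49 (SD, n = 4; difference 9.996 points, two-sided exact permutation p = 0.0286, which is the lowest the design allows, and adjusted p = 0.2), so the difference did not pass the adjustment. At that lowest p, a comparison can pass the adjustment over 14 tests only where many of the 14 reach it together. A comparison that does not pass therefore says little about whether the arms differ. The difference is given here as a size. This difference was 14.6 points with LPS and 5.38 points untreated. In counts, 478 and 408 members of the KO LPS libraries lay that far from genes, and 263 and 228 of the WT LPS libraries. The KO LPS lists held 53175 and 52452 autosomal peaks, and the WT LPS lists 55889 and 53945. The difference between KO and WT was 3.24 points with all genes of the gene table (5.73% and 2.49%). Among the widest 26226 peaks of each list it was 4.06 points (13.2% and 9.14%), and KO and WT libraries overlapped. There KO untreated library 1 (9.38%) lay below WT LPS library 1 (9.75%) and WT untreated library 2 (10.5%).

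Members over a gene showed the opposite order. They made up 42.4% and 42.1% in the KO LPS libraries, 53.7% and 51.5% in the WT LPS libraries, 50.7% and 46.7% in the untreated KO libraries and 53.5% and 50% in the untreated WT libraries. The KO mean was 45.5% ± 4.05 and the WT mean 52.2% ± 1.75 (n = 4, exact permutation p = 0.0571, adjusted p = 0.2), with the untreated libraries overlapping. Within 1 kb of a gene end lay 4.63% and 3.96% of the KO LPS members, 7.91% and 6.85% of the WT LPS members, 7.12% and 5.91% of the untreated KO members and 8.21% and 8.22% of the untreated WT members. KO averaged 5.41% ± 1.4 and WT 7.80% ± 0.645 (n = 4, exact permutation p = 0.0571, adjusted p = 0.2). In both treatments the KO pair was below the WT pair.

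For the scale of these shares, points placed every 1000 bases along the autosomes fell over a protein-coding gene in 40.9% of cases, within 1 kb of a gene end in 3.10% and over 100 kb from genes in 27.3%. The KO LPS members were nearer to these values than those of the other groups on all 3 measures. At over 500 kb from genes lay 8.88% and 7.66% of the KO LPS members, 2.26% and 2.91% of the WT LPS members, 3.97% and 5.59% of the untreated KO members, 2.72% and 2.47% of the untreated WT members and 8.38% of the autosomal points. The median width of members over 100 kb from genes was 217 and 214 bases in the KO LPS libraries, against 215 and 215.5 bases for their other members. The widths far from genes and elsewhere were 205 and 204 bases in WT LPS library 1 and 219.5 and 203 bases in WT LPS library 2. In the untreated libraries they were 222.5 and 222.5 bases in KO library 1, 217 and 212 in KO library 2, 231 and 233 in WT library 1 and 221 and 216 in WT library 2.

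**Figure D3:**
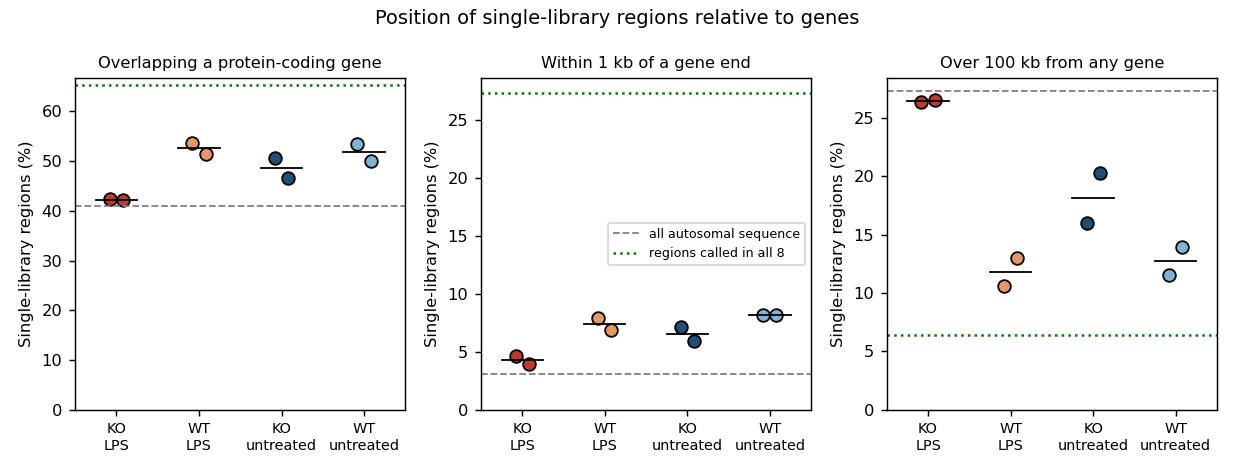
Share of single-library regions (y axis, %) that overlap a protein-coding gene (left), lie within 1 kb of a gene end (middle) or lie over 100 kb from any gene (right), by group; points are libraries and short lines group means. Grey dashed lines mark all autosomal sequence and green dotted lines regions called in all 8 lists; the KO LPS points, at 42.1% to 42.4%, 3.96% to 4.63% and 26.4% to 26.5%, are the nearest to the grey lines.

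None of the comparisons of LPS with untreated libraries passed the adjusted threshold, and of the place measures the share near a gene end had the same direction without overlap in both genotypes. In KO, 26.4% and 26.5% lay far from genes with LPS and 15.99% and 20.3% without, whereas the WT libraries overlapped (10.6% and 13.0% with LPS, 11.6% and 13.96% without). Over both genotypes the shares were 19.1% ± 8.49 with LPS and 15.5% ± 3.70 untreated (n = 4, exact permutation p = 0.457, adjusted p = 0.492). The shares over a gene were 47.4% ± 6.03 and 50.2% ± 2.80 (n = 4, exact permutation p = 0.429, adjusted p = 0.492). The shares near a gene end were 5.84% ± 1.85 and 7.36% ± 1.10 (n = 4, exact permutation p = 0.2, adjusted p = 0.467), lower with LPS than untreated in each genotype without overlap. Whether the LPS difference depends on genotype was not tested.

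The nearest region called in all 8 lists was a median of 31.8 and 30.7 kb away from the members of the KO LPS libraries. It was 10.8 and 15.5 kb away in the WT LPS libraries, 16.1 and 23.4 kb in untreated KO and 15.4 and 17.6 kb in untreated WT. The KO LPS pair stood above the other 6 libraries, and the untreated groups overlapped. KO averaged 25.5 ± 7.30 kb and WT 14.8 ± 2.85 kb (n = 4, exact permutation p = 0.0571, adjusted p = 0.2), and LPS 22.2 ± 10.6 kb against 18.1 ± 3.65 kb untreated (n = 4, exact permutation p = 0.4, adjusted p = 0.492). As means in place of medians the KO and WT distances were 126.7 and 63.9 kb, and among the widest 26226 peaks the medians were 32.5 and 26.7 kb. Members lay farther from these regions than the regions shared by 2 to 7 lists did, in 8 of 8 libraries (20.2 ± 7.66 and 11.3 ± 0.918 kb, exact permutation p = 0.00781, adjusted p = 0.00781, n = 8). The median over the autosomal points was 50.9 kb.

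In each library, most members lay 1 kb or more from any region called in all 8 lists. Within 1 kb of a region of all 8 lists lay 3.81% and 5.07% of the KO LPS members, 8.23% and 7.60% of the WT LPS members, 7.19% and 5.48% of the untreated KO members and 4.41% and 7.07% of the untreated WT members. At 100 kb or more lay 31.1% and 30.7% of the KO LPS members and 9.64% to 22.7% of those of the other libraries. Within 200 bases of any region held by more than 1 list lay 1.96% to 4.23% of the members. Of the members of a library, 4.01% to 5.58% lay within 1 kb of a member of another library, and 0.712% to 1.49% within 1 kb of a member of the other library of their group.

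**Figure D4:**
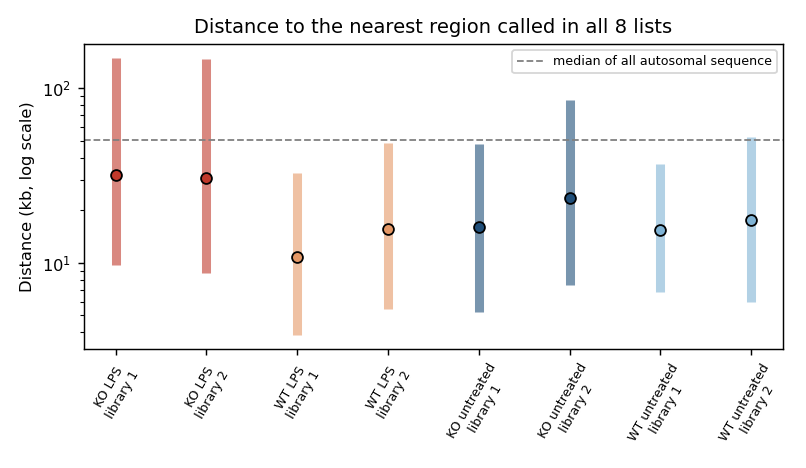
Distance from single-library regions to the nearest region called in all 8 lists (y axis, kb, log scale) for each library; points are medians and bars run between the quartiles. The KO LPS medians are 31.8 and 30.7 kb, above the 10.8 to 23.4 kb of the other 6 libraries, and the dashed line marks the median of 50.9 kb over all autosomal sequence.

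Members were spread over all autosomes, with 5.89 per Mb on chromosome 8, which carries Nfat5, to 8.92 per Mb on chromosome 13. Their share of the regions of a chromosome ran between 17.4% on chromosome 19, with 12.1 protein-coding genes per Mb, and 22.9% on chromosome 14, with 6.99. Nfat5 itself was the nearest gene of 7 regions, of which 2 were members, 1 each of KO LPS library 1 and KO untreated library 2, both outside the gene.

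The regions called in exactly 2 lists, which the rule leaves out, showed the same order of genotypes. Both KO LPS libraries and no other called 203 regions, of which 22.7% lay over 100 kb from genes. Both WT LPS libraries alone called 956, of which 10.7% did. The untreated pairs alone called 541 in KO and 631 in WT, with 13.9% and 8.24% far from genes. Over all pairs of lists, the 6 pairs of KO libraries had 13.9% to 22.9% and the 6 pairs of WT libraries 6.19% to 10.7%, without overlap. The 16 mixed pairs had 6.41% to 16.6%. Regions shared by 2 to 7 lists also lay far from genes more often in each KO library (11.4% and 11.8% with LPS, 10.1% and 10.6% untreated) than in any WT library (8.76% and 9.19% with LPS, 8.62% and 9.26% untreated). These values are descriptions and were not tested, and the pairs share libraries.

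With predicted genes and the olfactory and vomeronasal receptor genes left out, the 5 widest members of each group near a gene were 755 to 1988 bases wide. In the KO LPS libraries, all 5 were of library 1. They lay inside L3mbtl4, a gene of the malignant brain tumour repeat family (chromosome 17, 68690657 to 68691979, 1323 bases), and near Cdh2, the gene of N-cadherin (1176 bases, 58.5 kb away). Others lay 0.248 kb from Cdkn1a, an inhibitor of the cell cycle (chromosome 17, 29100971 to 29102140, 1170 bases), inside Mia2 (1158 bases) and inside Adgre1, which encodes a surface protein of macrophages (chromosome 17, 57435508 to 57436568, 1061 bases). Of these 5 regions, only the one at Cdkn1a was within 1 kb of a gene end, and it lay 5.06 kb from a region of all 8 lists.

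In the WT LPS libraries the widest members lay near Krtap8-1, a gene of a hair protein (chromosome 16, 89453979 to 89455247, 1269 bases, 32.1 kb away), and 1.91 kb from Sod2, the superoxide dismutase of mitochondria (chromosome 17, 13020030 to 13021282, 1253 bases). The others lay near Cd209b, a lectin receptor of macrophages (1204 bases), Ube3a, a ubiquitin ligase (1190 bases), and Zeb1, a transcriptional repressor (1149 bases). None of these 5 overlapped its gene.

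In untreated KO cells the widest members lay inside Foxn3, a forkhead factor (chromosome 12, 99508082 to 99509288, 1207 bases), near H60b, a ligand of natural killer cell receptors (1080 bases), and near Zfp637 (956 bases). They also lay over Rgs1, a regulator of chemokine receptor signalling (chromosome 1, 144246382 to 144247277, 896 bases), and Bhlha15, a factor of secretory cells (881 bases). In untreated WT cells they included regions inside Orc5, a subunit of the origin recognition complex (chromosome 5, 22493193 to 22495180, 1988 bases), Fcgbp (1011 bases) and Dpcd (776 bases), and one 5.39 kb from Abt1 (755 bases). The Orc5 region became part of a region of 4 lists when peaks within 200 bases were merged.

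Genes known to respond to LPS had members mostly in the WT LPS libraries. Of the 325 regions assigned to the 40 early LPS response genes (the nearest gene within 100 kb), 54 were members, 16.6% against 20.0% over all regions. By library they numbered 4 and 2 in KO LPS, 23 and 9 in WT LPS, 2 and 6 in the untreated KO libraries, and 5 and 3 in those of untreated WT. Both WT LPS libraries held more than any other library, also as a share of their members (0.928% and 0.514%, against 0.130% to 0.221% in the other 6). The widest lay over Tnf, an inflammatory cytokine (chromosome 17, 35199804 to 35200309, 506 bases, WT LPS library 1), and 0.876 kb from Cxcl2, a chemokine for neutrophils (chromosome 5, 90906815 to 90907276, 462 bases, KO LPS library 1). Both lay close to other calls: when peaks within 200 bases were merged, the merged region at Tnf held peaks of all 8 lists and that at Cxcl2 peaks of 2.

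The late LPS and interferon response genes had 27 members among 193 regions (13.99%), with 1 each in the KO LPS libraries, 13 and 4 in WT LPS, 2 and 0 among the untreated KO libraries and 2 and 4 among the untreated WT ones. WT LPS library 1 alone held 13 of the 27. The widest lay 0.475 kb from Ifit2, an interferon-induced antiviral gene (chromosome 19, 34577010 to 34577835, 826 bases), and 0.298 kb from Acod1, which makes itaconate in activated macrophages (chromosome 14, 103056872 to 103057258, 387 bases), both in WT LPS library 1. Of single cytokine and chemokine genes, Il12b had 3 members, Il1b 2 and Tnf and Ccl2 1 each, and Il6 and Cxcl10 had 0. Nos2, the inducible nitric oxide synthase, and Ciita, the transactivator of MHC class II genes, also had 0.

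Genes of other fixed lists differed in how many of their regions were members. Housekeeping genes had 2 of 53 (3.77%), with 64.2% of their regions called in all 8 lists. MHC class II genes had 5 of 33 (15.2%), osmotic stress genes 16 of 89 (17.98%, the widest 76.1 kb from Slc6a6, the taurine transporter) and macrophage identity genes 74 of 343 (21.6%, with Cd36, a scavenger receptor, after Adgre1). T cell markers had 8 of 33 (24.2%), 5 of them in KO untreated library 2. Members also made up 4 of 17 regions at B cell, 4 of 19 at neutrophil, 8 of 45 at dendritic cell, 2 of 10 at erythroid and 2 of 12 at mast cell or basophil markers. Fibroblast or stroma markers had 16 of 49 (32.7%) and muscle genes 10 of 62 (16.1%). The share over all autosomal regions, 20.0%, was the same measure without a list, and no list was tested.

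Of the 16 lists, the receptor families and the neuronal genes had the largest shares. The neuronal genes had 108 members among 297 regions (36.4%). As a share of the members of a library they made up 1.32% and 0.909% in KO LPS, 0.444% and 0.343% in WT LPS, 0.605% and 0.784% in the untreated KO libraries and 0.358% and 0.530% in untreated WT, with each KO library above each WT library. The widest lay inside Gabrb1, a subunit of the receptor for the transmitter GABA (462 bases), and Cntnap2, a neuronal adhesion gene (448 bases). The 1493 olfactory, vomeronasal and taste receptor genes had 243 members among 556 regions (43.7%). These made up 2.21% and 2.60% of the members in KO LPS, 1.05% and 1.142% in WT LPS, 1.01% and 1.92% in the untreated KO libraries and 0.645% and 1.33% in untreated WT. With LPS the KO pair lay above the WT pair, and untreated they overlapped. These receptor families hold near-identical copies, to which reads are assigned with less certainty.

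**Figure D5:**
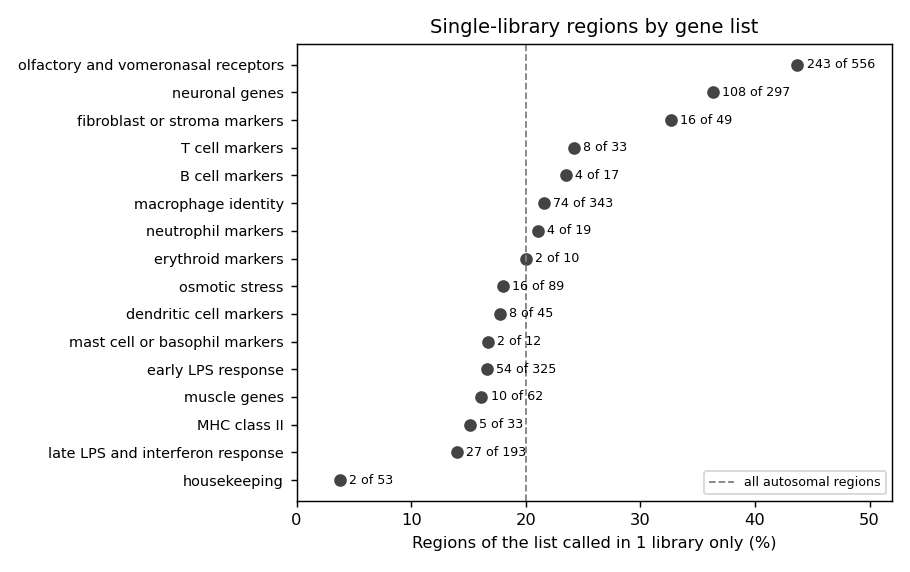
Share of the regions of each gene list that were called in 1 library only (x axis, %), with the number of members and of regions beside each point. The dashed line marks the 20.0% of all autosomal regions; the receptor families (43.7%) and neuronal genes (36.4%) lie farthest above it and housekeeping genes (3.77%) farthest below.

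Of 20665 autosomal protein-coding genes, 7308 were the nearest gene of a member, 4224 of them of exactly 1 and 476 of 5 or more, and 2824 members had no gene within 100 kb. Among the genes with the most members were Zfp978 with 31 of its 55 regions and Zfp993 with 26 of 42, both zinc finger genes on chromosome 4 whose family also holds near-identical copies. Robo2, an axon guidance receptor gene of 1556 kb, had 22 of 51, and Macrod2, a gene of 1998 kb, had 18 of 52. At each of these 4 genes all 8 libraries held at least 1 member. The members at 1 gene were thus spread over libraries.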

How the data were processed

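Each deposited file was the peak list of 1 library and gave the chromosome, start and end of each peak on GRCm38 (mm10), and held no other values. The tools named, per the submitters' processing notes, are MACS2 2.1.1, Picard, Bowtie2 2.3.0 and bcl2fastq 2.17.1.14. The sources used here do not give their settings, the calling threshold or any shift of cut sites, and these steps decide which weak peaks enter a list. Depth is therefore unknown and no counting interval can be given.

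Starts were read as counted from 0 and are printed counting from 1. Genes came from the GRCm38.p6 RefSeq table (21900 protein-coding genes, without strand). Peaks were merged and regions located with Python 3.11.15 and NumPy 2.4.6, checked on simulated lists. Library values were compared 4 against 4 by a two-sided exact permutation test of means over 70 arrangements (Benjamini-Hochberg over 14 tests), and members with shared regions by exact sign flips over 256 arrangements (over 4 tests), at an adjusted p of 0.05.

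The members and the gene lists were chosen with earlier results of these data known. Of 248 entries in the 15 written lists, 3 matched no symbol and 5 lay on X or Y. A 16th list took receptor families by symbol. Named regions were the 5 widest per group and the 2 widest per list, 1 per gene, predicted genes left out of the group lists, the 6 genes with the most members, and the 2 widest on a promoter window per group; part of these are printed, and a few are not reported here. Alternatives were other merging rules, shorter lists, X and Y, width and distance limits, all genes, leaving out libraries and a replicate block.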

Additional observations from a re-analysis of the deposited data

How the results depend on the processing

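Of 295 values recomputed under the alternatives, 284 kept their direction and their side of the threshold. The 4 comparisons of members with shared regions passed under every alternative run (adjusted exact permutation p at most 0.0312). For those 4 comparisons, no alternative took libraries with the same title code as 1 unit. None of the 14 comparisons between arms passed under any alternative (adjusted exact permutation p at least 0.1). With a smallest exact permutation p of 0.0286, passing was possible only where many of the 14 reached it together, so this does not show that the arms are alike. With the widest peaks at equal list length, LPS minus untreated became 74.5 for the number of members and 0.172 points for their share of regions; at 26226 peaks per list it became 59.3 and 0.240 points. KO minus WT in median width, 2.12 bases as deposited, became -9.75 bases at equal length, -17 at 26226 peaks and -1.25 for regions of at least 200 bases. At 26226 peaks there were 7509 members in all, since fewer peaks entered. Leaving out 1 library at a time gave -3.08 to 7.79 bases for the width, -1.49 to 0.00675 points for the LPS difference in share, reversed without WT LPS library 2, 16524 to 17252 members, and 8.33 to 11.5 points for the KO difference far from genes. The LPS differences ran between -1015 and -153 for the number, 1.139 and 5.38 points for the share far from genes and 0.0999 and 5.65 kb for the distance, and the KO difference in number between -953 and -208. The width difference reversed without WT LPS library 1 (-2.17 bases) or 2 (-3.08). The cause of these reversals was not tested. Of the 50 named regions, 46 remained single when peaks within 200 bases were merged. With a replicate block (sign flips over 4 pairs of the same number, smallest exact permutation p 0.125), the KO difference far from genes was 9.996 points with p = 0.125, adjusted p = 0.35. That smallest p is above 0.05, so no comparison could pass with the block, and it cannot decide whether one would. For KO against WT it paired libraries of the same number within a treatment, so libraries with the same title code stayed separate units. Deviations of same-numbered libraries from their group means correlated at 0.0133 to 0.0377, and whether the numbers pair the samples is not given by the labels.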
